A study of Mus musculus with 4 samples.

Results

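The oligoadenylate synthetase (OAS) genes were followed in a cultured mouse ovarian cancer line, BR5FVB1-Akt, with and without decitabine. The genes followed were Oas1a, Oas1b, Oas1g, Oas2, Oas3, Oasl1 and Oasl2, and a gene was measured where an array row carried its symbol alone. Of these 7 genes, 6 had such a row, out of 22180 genes measured in this way. Oas1a had none, because the array row that reports it is annotated to Oas1g as well, and that shared row is described separately. The gene of RNase L, the enzyme that OAS products activate, was not analysed here. The 4 samples were 2 controls and 2 cultures given 10 uM decitabine for 72 h, each hybridised to 1 Affymetrix Mouse Gene ST array. The labels give the line and its tissue but no genotype, no vehicle for the controls and no statement of separate cultures beyond the words biological replicate, so the spread behind the p-values may be technical.

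Decitabine is a cytidine analogue that is built into replicating DNA and traps DNA methyltransferases, which lowers DNA methylation. OAS enzymes are interferon-induced sensors of double-stranded RNA. When bound to such RNA they join ATP into short oligoadenylates, and these activate RNase L, which cuts cellular and viral RNA and so limits translation and viral growth. In the mouse the Oas1 gene is present in many neighbouring copies, only some of which encode an active synthetase. The Oasl genes encode OAS-like proteins that carry ubiquitin-like domains.

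Values in the deposited table were taken for log2 expression, because they ran from 0.55 to 13.26 with no missing cell. The log base is not stated in the sources used here, so the fold changes hold only for that base. Medians over all rows were 4.60 to 4.66 on the 4 arrays, and Pearson's r across genes, which are not independent replicates, was 0.990 or higher for each pair of arrays. Levels of different rows are not comparable and no background level could be set, so the label of the line could not be tested by its markers: no row was at 0, and no epithelial, mesenchymal or leukocyte marker could be called present or absent.

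The comparison asked how OAS expression differed after decitabine. On the decitabine arrays 5 of the 6 measured OAS genes were higher, by 1.84-fold to 4.02-fold, and Oas3 was not distinguishable. A larger share of cells with a high level and a higher level in every cell cannot be told apart in bulk RNA. The largest difference was in Oasl2 and the smallest of the 5 in Oas1b. In limma with Benjamini-Hochberg adjustment over all 22180 genes, none of the 6 passed an adjusted p of 0.05 (lowest adjusted p = 0.0564, for Oasl2), against 0.131% of all genes called higher and 0.0135% called lower. Before adjustment 5 of the 6 had a p under 0.05 and were higher and 0 were lower, against 7.34% and 6.97% of all genes. When the variance was fitted with an intensity trend, the same 5 passed as higher over all genes, with adjusted p between 2.48e-05 and 0.00503, against 3.68% of all genes called higher and 3.6% called lower in that fit. With the trend and all 41345 rows fitted, Oasl2 alone of the 6 passed (adjusted p = 0.0295), and with the trend 3 passed without control replicate 1 or 2, and 5 without decitabine replicate 1 or 2. The median log2 difference of the 6 was 1.30, and that of all genes was 0.00. Both decitabine arrays lay above both control arrays for 5 of the 6, against 23.4% of all genes. With 2 arrays against 2, an exact permutation test of a single gene cannot give a two-sided p below 0.333.

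**Figure D1:**
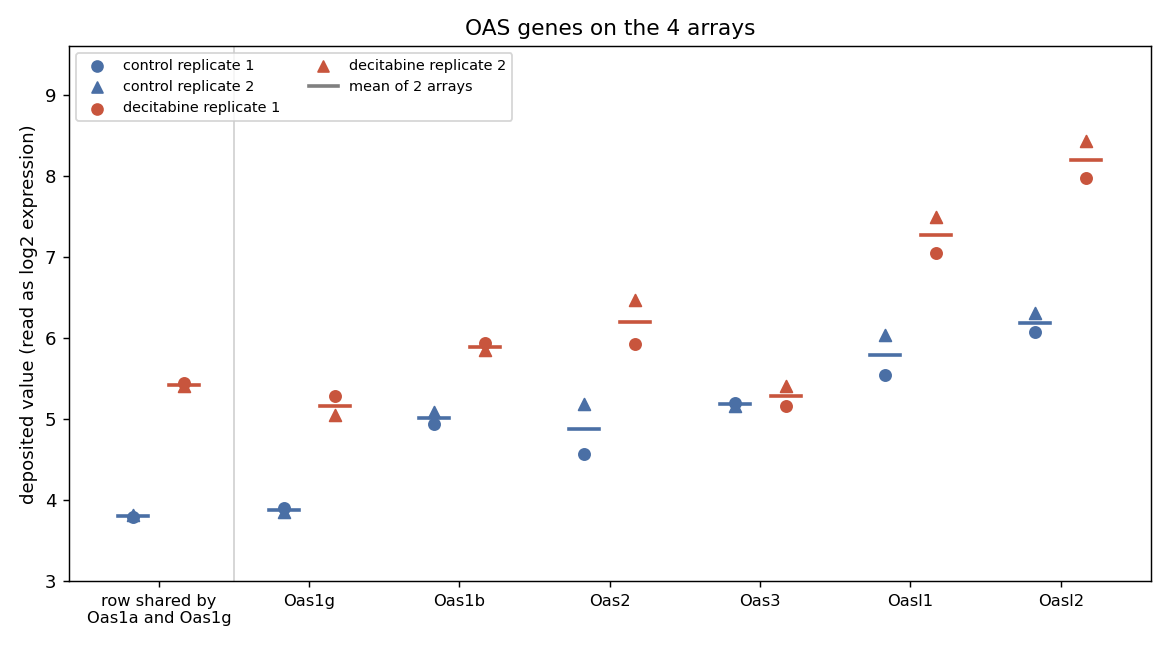
Deposited values, read as log2 expression, of the 6 measured OAS genes and of the row shared by Oas1a and Oas1g, on each of the 4 arrays (blue, control; red, decitabine; circles, replicate 1; triangles, replicate 2; bars, mean of 2 arrays). The groups overlap for Oas3 only, where the control values of 5.17 and 5.20 lie between the decitabine values of 5.16 and 5.41; levels of different rows are not comparable.

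Among the synthetases of the Oas1 group, Oas1g encodes an active enzyme closely related to that of Oas1a. The Oas1g row (17452115) read 3.91 and 3.85 in the controls and 5.28 and 5.05 with decitabine. By control level it lay at percentile 26.2 of all genes, near Oas1e (21.7) and Oas1f (22.3). With no background level, the size of its fold is therefore less certain than the interval alone says. The lowest decitabine value was 1.14 log2 units above the highest control. The log2 difference was 1.28 ± 0.12 (SE, 2 arrays per group), a 2.43-fold difference with a 95% confidence interval of 1.96 to 3.02 (limma, adjusted p = 0.0579, and 0.00138 with the intensity trend).

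The row annotated to both Oas1a and Oas1g (17452126) read 3.80 and 3.82 in the controls and 5.45 and 5.40 with decitabine. The control values were as low as those of the Oas1g row, so the same limit holds. Arrays of a group differed by 0.02 among controls and by 0.04 with decitabine. The log2 difference was 1.62 ± 0.11, or 3.07-fold, in the fit of all 41345 rows (limma, unadjusted p = 7.34e-05, adjusted p = 0.313). These values cannot be divided between Oas1a and Oas1g, and because the copies are alike, some of the signal of the Oas1g row may be shared too.

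Oas1b is known as the flavivirus resistance gene of the mouse, and in most laboratory strains an early stop codon truncates its protein. RefSeq's table for assembly GRCm38.p6 lists it as a transcribed pseudogene. It read 4.94 and 5.09 in the controls and 5.94 and 5.85 with decitabine. Both decitabine values were above both controls, by at least 0.76. The log2 difference was 0.88 ± 0.11, a 1.84-fold difference with an interval of 1.52 to 2.23 (limma, adjusted p = 0.0855, and 0.00369 with the trend). It passed also when only genes above the 25th percentile of level were tested (adjusted p = 0.0342).

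Oas2 and Oas3 encode larger synthetases made of repeated OAS units. Oas2 read 4.58 and 5.18 in the controls and 5.92 and 6.47 with decitabine. The second replicate was the higher one in both groups, by 0.61 and 0.54, so the nearest values of the groups were 0.74 apart, and their means differed by 1.31 ± 0.27. The fold was 2.49 with an interval of 1.53 to 4.04 (limma, adjusted p = 0.170, and 0.00503 with the trend).

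Oas3 read 5.20 and 5.17 in the controls and 5.16 and 5.41 with decitabine. The lowest of the 4 values was a decitabine array. Its log2 difference was 0.10 ± 0.12, with an interval of 0.864- to 1.34-fold (limma, adjusted p = 0.763, and 0.831 with the trend), and it was -0.02 without decitabine replicate 2. Oas3 and Oas2 are direct neighbours on chromosome 5, and whether their differences differ was not tested.

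Among the OAS genes with a row of their own, the OAS-like genes had the largest differences. Oasl2, whose mouse protein keeps synthetase activity, read 6.07 and 6.31 in the controls and 7.97 and 8.42 with decitabine. The lowest decitabine value was 1.66 log2 units above the highest control. The log2 difference of 2.01 ± 0.19 ranked 8th of 22180 genes, a 4.02-fold difference with an interval of 2.89 to 5.60 (limma, adjusted p = 0.0564, and 2.48e-05 with the trend). With each array centred on its median it passed without the trend (adjusted p = 0.0269).

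Oasl1 encodes a protein without synthetase activity that is known in the mouse to hold back translation of the interferon regulator Irf7. It read 5.55 and 6.04 in the controls and 7.05 and 7.49 with decitabine. As with Oas2, the second replicate was higher in both groups, by 0.49 and 0.44. The log2 difference was 1.48 ± 0.23, or 2.78-fold with an interval of 1.86 to 4.17 (limma, adjusted p = 0.121, and 6.72e-04 with the trend). By the size of the difference the genes were ranked 31st for Oasl1, 39th for Oas2, 43rd for Oas1g, 119th for Oas1b and 6741st for Oas3 among all genes.

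The other 5 Oas1 copies of the mouse cluster, most of which are not known to make oligoadenylates, were all measured and none passed in limma with either variance model. Their median log2 difference was -0.00, with 2 positive and 3 negative. Oas1c read 5.29 and 5.37 in the controls and 5.03 and 5.10 with decitabine. Both decitabine values were below both controls, by a log2 difference of -0.27 ± 0.10 (unadjusted p = 0.0434, adjusted p = 0.333). For Oas1d, which in the mouse is expressed in oocytes, the difference was 0.09 ± 0.19, for Oas1e 0.26 ± 0.29, for Oas1f -0.00 ± 0.18 and for Oas1h -0.14 ± 0.17, and the groups overlapped for each of these 4. Their upper 95% bounds ran from -0.01 for Oas1c to 1.01 for Oas1e. By mean level Oas1d, Oas1h, Oas1f and Oas1e lay low, at percentiles 5.84, 6.88, 22.1 and 23.7 of all genes, and Oas1c at 49.5. With no background level, a missing signal and an unchanged one cannot be told apart for the low rows.

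The OAS genes lie in 2 groups on chromosome 5, and the genes beside them were compared after the values were seen. Taking the 4 nearest measured genes on each side, the 16 flanking genes had log2 differences between -0.45 and 0.32, with a median of -0.06. None passed in limma without the trend, and 2 of the 16 had a p under 0.05 before adjustment, against 7.34% of all genes higher and 6.97% lower. These were Acads (-0.45 ± 0.11) and 4930519G04Rik (0.32 ± 0.10), both beside the Oasl genes. With the trend Acads fell (limma, adjusted p = 0.0112), 1 call among the 16, against 3.6% of all genes called lower in that fit. Within the larger group, Oas1b and Oas1g, both higher, lay among Oas1c, Oas1f, Oas1h and Oas1d, none of which passed. The rows of Oas1f, Oas1h and Oas1d were low in level. A list of 13 measured genes of chromosome 5 overlapped these flanking genes and is not separate evidence. Ddx54, Cfap73, Rasal1, Dtx1, Rph3a, Ptpn11 and Sppl3 were in both. The list had a median of 0.06 and no call without the trend. With the trend 1 of the 13 fell, Tpcn1 (-0.46 ± 0.13, limma, adjusted p = 0.0143), against the same 3.6% of all genes. Single calls among so few genes say little about the neighbours.

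**Figure D2:**
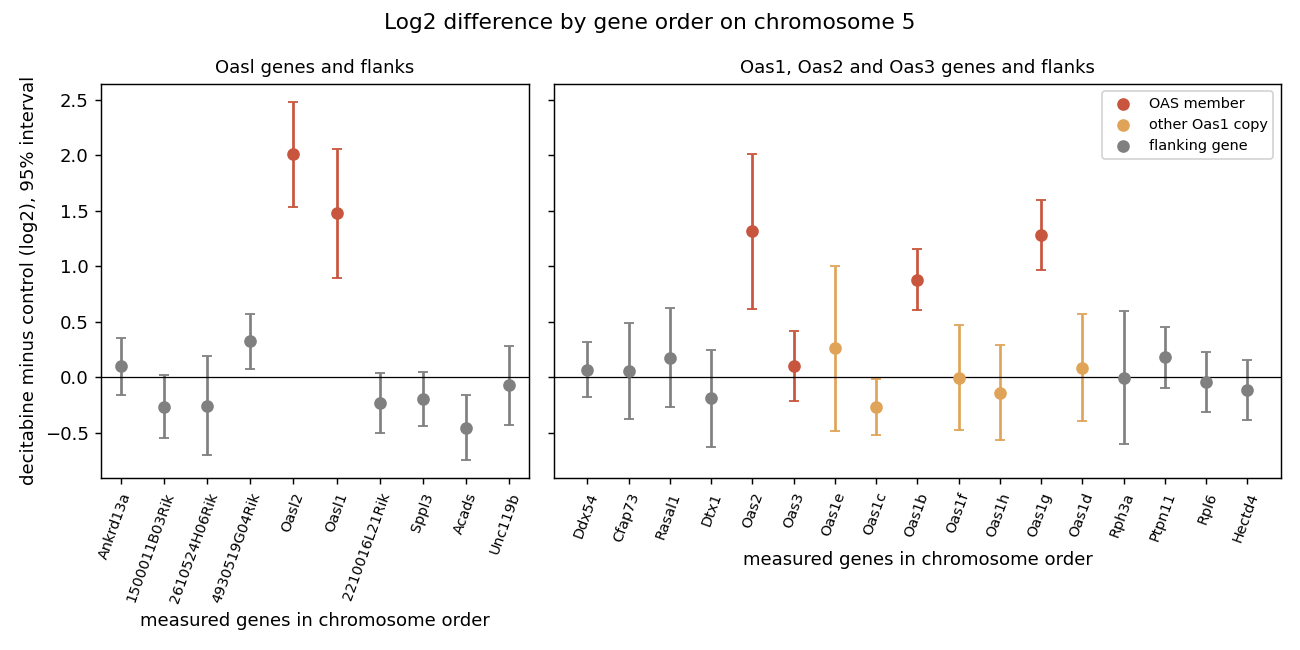
Decitabine minus control on the log2 scale for measured genes in their order on chromosome 5 (GRCm38.p6 order, not to distance), with limma's 95% confidence intervals; left, the Oasl genes, right, Oas1, Oas2 and Oas3, each with 4 flanking genes per side. Oasl2, Oasl1, Oas2, Oas1b and Oas1g have intervals above 0.6, while the flanking genes run from -0.45 to 0.32.

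Promoter windows from RefSeq (GRCm38.p6, 300 bases, of which the first 250 precede the gene's start) were held for 5 of the 7 OAS genes and 3 of the other copies. They are shown because genes that differed together and a neighbour that did not can be set side by side. The windows were searched on both strands for GAAA, any 2 bases and GAAA again, the core of the interferon-stimulated response element, and capitals mark the matches. Overlapping matches were counted apart, and the search for 1 motif overlapped no other. Of all 32851 windows 3.44% held a match.

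Oas1g, GRCm38.p6 chr5:120887564-120887863, minus strand: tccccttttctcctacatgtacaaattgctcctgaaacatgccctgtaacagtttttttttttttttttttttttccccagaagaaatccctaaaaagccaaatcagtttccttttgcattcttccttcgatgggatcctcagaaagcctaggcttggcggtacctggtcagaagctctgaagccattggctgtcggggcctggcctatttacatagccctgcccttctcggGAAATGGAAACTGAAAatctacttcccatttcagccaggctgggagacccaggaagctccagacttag
Oas1a, GRCm38.p6 chr5:120907476-120907775, minus strand: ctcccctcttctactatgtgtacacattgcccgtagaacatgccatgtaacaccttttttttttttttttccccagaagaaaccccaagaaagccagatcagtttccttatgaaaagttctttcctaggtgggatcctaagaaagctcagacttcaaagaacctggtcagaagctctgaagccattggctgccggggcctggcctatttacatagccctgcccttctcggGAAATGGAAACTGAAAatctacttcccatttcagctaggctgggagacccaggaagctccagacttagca
Oas3, GRCm38.p6 chr5:120777610-120777909, minus strand: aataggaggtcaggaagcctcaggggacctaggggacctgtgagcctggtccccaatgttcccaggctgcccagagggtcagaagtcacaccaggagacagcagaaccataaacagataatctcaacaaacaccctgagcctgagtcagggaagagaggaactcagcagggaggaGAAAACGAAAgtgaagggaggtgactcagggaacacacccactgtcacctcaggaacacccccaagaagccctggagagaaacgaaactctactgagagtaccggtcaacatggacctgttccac
Oas1c, GRCm38.p6 chr5:120812465-120812764, minus strand: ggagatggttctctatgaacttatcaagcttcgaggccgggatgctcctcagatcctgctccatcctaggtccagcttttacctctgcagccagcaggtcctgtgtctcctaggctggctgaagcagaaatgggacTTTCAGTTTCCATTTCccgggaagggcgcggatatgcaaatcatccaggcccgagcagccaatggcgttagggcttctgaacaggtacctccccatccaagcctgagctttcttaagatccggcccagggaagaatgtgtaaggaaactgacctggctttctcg
Oasl2, GRCm38.p6 chr5:114896684-114896983, plus strand: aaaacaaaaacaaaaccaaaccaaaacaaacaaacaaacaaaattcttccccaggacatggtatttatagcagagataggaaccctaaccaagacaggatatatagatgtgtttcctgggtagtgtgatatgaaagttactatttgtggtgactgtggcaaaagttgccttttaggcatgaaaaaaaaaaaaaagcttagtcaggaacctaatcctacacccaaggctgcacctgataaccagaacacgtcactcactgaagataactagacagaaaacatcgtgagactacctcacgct

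Oas1g and Oas1a each held 2 overlapping matches, at bases 233 to 248 and 231 to 246, and their windows were 85.3% identical over the alignment. Oas3, whose arrays overlapped between groups, held 1 match at bases 176 to 185. Oas1c held 2 overlapping matches on the opposite strand, at bases 137 to 152. The windows of Oasl2, printed above, and of Oasl1, Oas1f and Oas1h held no match. Matches were thus found before genes that were higher and before genes that were not. The 5 windows of the listed OAS genes held 3 to 8 CpG dinucleotides, the sites that DNA methyltransferases modify, against a median of 7 over all windows. Of the 5, Oasl1 alone was above that median, with 8.

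Partners of the OAS products were measured in 3 genes, and none passed. Abce1, which encodes an inhibitor of RNase L that also recycles ribosomes, read 10.78 and 10.75 in the controls and 10.84 and 11.06 with decitabine (log2 difference 0.19 ± 0.12). Pde12, which encodes a phosphodiesterase that breaks down oligoadenylates, was at 0.09 ± 0.11. Akap7, whose product has been described in the mouse as another such phosphodiesterase, was at -0.18 ± 0.12. The 95% upper bounds of Abce1, Pde12 and Akap7 were 0.49, 0.37 and 0.12.

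Genes of other double-stranded RNA sensors and their regulators were higher in part. Of 15 measured, none passed in limma without the trend, 8 were higher and 2 lower before adjustment (p under 0.05), and 7 were higher and 1 lower over all genes with the trend. Over all genes the shares were 7.34% higher and 6.97% lower before adjustment, and 3.68% and 3.6% with the trend. The median of the 15 was 0.31. The genes with the smallest p-values were Zbp1 (1.00 ± 0.11), which binds Z-form nucleic acid, Ddx58 (1.17 ± 0.14) and Ifih1 (0.69 ± 0.12), which encode cytosolic RNA sensors, and the RNA-editing gene Adar (0.86 ± 0.12).

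The median of the 22 measured genes of interferon signalling was 0.05. Before adjustment (p under 0.05) 4 were higher and 0 lower, against 7.34% and 6.97% of all genes. With the trend 4 were higher and 0 lower, against 3.68% and 3.6% of all genes. In limma without the trend 1 of the 22 rose, against 0.131% of all genes. The 1 was Usp18, which encodes a feedback inhibitor of the interferon receptor (2.19 ± 0.19, adjusted p = 0.0495), and its call was lost with quantile normalization (adjusted p = 0.0588) and with robust eBayes (adjusted p = 0.0591). Irf7, the transcription factor gene whose mRNA Oasl1 is known to restrain, read 6.31 and 6.10 in the controls and 7.77 and 8.12 with decitabine, a log2 difference of 1.74 ± 0.16 (adjusted p = 0.0564). Irf9 (0.93 ± 0.11) and Stat2 (0.46 ± 0.15), which encode subunits of the factor that binds the response element, followed. The row of the interferon gene Ifnb1, named after its value was seen, was at 0.10 ± 0.32. It read 3.66 and 2.73 in the controls, at percentile 16.4 of mean level, so it says little about interferon expression. Other interferon rows, also named after their values were seen, were Ifna2 (-0.12 ± 0.20), Ifna4 (-0.01 ± 0.11), Ifnl2 (-0.04 ± 0.14), Ifnl3 (-0.04 ± 0.11) and Ifng (-0.30 ± 0.18). None of these passed in limma with or without the trend.

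The median of 37 other interferon-stimulated genes was 0.59. Ifih1 is in this list and among the RNA sensors, and it is counted as higher in both. Before adjustment (p under 0.05) 27 were higher and 1 lower, against 7.34% and 6.97% of all genes. With the trend 25 were higher and 1 lower, against 3.68% and 3.6% of all genes. In limma without the trend 3 of the 37 rose, against 0.131% of all genes. The 3 were Ifit1 (1.98 ± 0.10), whose product binds foreign RNA, the guanylate-binding protein gene Gbp3 (1.38 ± 0.11) and Rtp4 (2.12 ± 0.17). Bst2, which encodes a protein that tethers budding virus, was at 1.09 ± 0.10 (adjusted p = 0.0558). Rtp4 and Gbp3 did not pass with robust eBayes (adjusted p = 0.0519 and 0.0510), nor Rtp4 with quantile normalization (adjusted p = 0.0506). With any 1 array left out, none of Usp18, Ifit1, Gbp3 and Rtp4 passed in limma without the trend (adjusted p from 0.132 for Ifit1 upward).

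Reference genes, by comparison, had a median of 0.00 over 9, of which 1 was higher and 0 lower before adjustment and with the trend, the interferon-responsive gene B2m (0.26 ± 0.10, limma with the trend, adjusted p = 0.00942). Leukocyte markers had a median of 0.16 over 19, with 13 of 19 positive. Before adjustment 2 were higher and 0 lower, a share near that of all genes (7.34% higher), Itgam (0.50 ± 0.11) and Cd68 (0.45 ± 0.10), and with the trend Cd68 passed as higher. The median level of the leukocyte markers was 3.71 and 3.68 in the controls and 3.81 and 3.93 with decitabine on the log2 scale. Of 14 epithelial markers 4 were higher and 1 lower before adjustment and also with the trend. Of all genes 7.34% were higher and 6.97% lower before adjustment, and 3.68% and 3.6% with the trend. The largest difference was in Msln (0.86 ± 0.10), and the marker counted as lower was Wt1 (-0.28 ± 0.10). Muc16 was further below 0 (-0.43 ± 0.18) but was not counted as lower. The median log2 difference of the epithelial markers was 0.18, with 11 of 14 positive. Their median level was 5.62 and 5.76 in the controls and 5.99 and 5.83 with decitabine. Of 14 mesenchymal markers 4 were likewise higher and 1 lower, with the largest differences in Thy1 (1.48 ± 0.17) and Acta2 (0.72 ± 0.10). The marker counted as lower was Pdgfra (-0.28 ± 0.10), while Zeb1 was further below 0 (-0.32 ± 0.13) without being counted. The median log2 difference of the mesenchymal markers was 0.08, with 8 of 14 positive. Their median level was 9.70 and 9.77 in the controls against 9.59 and 9.54 with decitabine. None of the markers passed in limma without the trend. The genes named from these lists and from the genes beside the OAS groups were chosen after their values were seen, and the part of marker changes in the OAS differences was not tested.

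**Figure D3:**
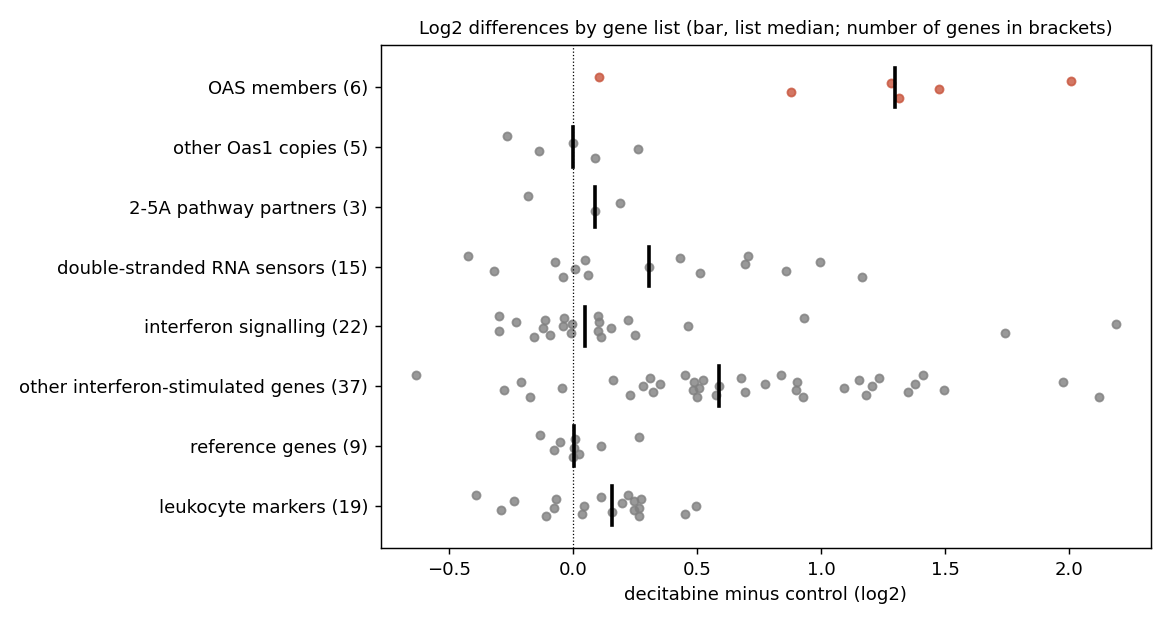
Decitabine minus control on the log2 scale for each measured gene of 8 lists, 1 point per gene, with the list median as a black bar; vertical scatter within a list carries no meaning. The OAS genes have a median of 1.30 with Oas3 at 0.10, the other Oas1 copies lie between -0.27 and 0.26, and the reference genes have a median of 0.00.

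The genes whose values over the 4 arrays were most like the average OAS gene were found by the Euclidean distance between values with each gene's own mean removed, averaged over the 6 measured OAS genes. With OAS genes left out, the nearest 5 were Ch25h (distance 0.07), which encodes cholesterol 25-hydroxylase, Fam71f1 (0.07), the phosphatase gene Dusp4 (0.17), Enc1 (0.20) and Bst2 (0.20). Ch25h read 4.91 and 5.14 in the controls and 6.03 and 6.35 with decitabine on its brightest row, a log2 difference of 1.17 that became 0.65 with the mean of its rows. Like Oas2, Oasl1 and Oasl2 it was higher on the second replicate of each group. The average OAS gene was too, so the choice by distance favours this trait. Of all genes 22.7% were higher on replicate 2 in both groups. Of the OAS genes themselves, Oas2 was nearest to the average (0.37) and Oas3 farthest (1.09).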

How the data were processed

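RNA isolated on columns was biotin-labelled and put on 4 arrays, per the labels' protocols. The authors deposited 1 value per row and array, taken here as log2 expression from its range. How they summarised, corrected and normalized the values is not given in the sources used here. Of 41345 rows, 23521 had 1 symbol in the platform table, 1814 several and 16010 none here. Rows with 1 symbol gave 22180 genes, each by its row with the highest mean. The test was limma's (version 3.58.1, R 4.3.3; group as the only term, two-sided, no intensity trend), with Benjamini-Hochberg adjustment over all genes. Motifs were searched in Python 3.11.15. The number of arrays limits the precision.

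The members and gene lists were chosen with earlier results of these data known. Named were the OAS genes, the other Oas1 copies and oligoadenylate partners, the 4 genes of smallest p in each of the lists of RNA sensors, interferon signalling and other interferon-stimulated genes, and the 5 nearest genes. The text says where a gene falls outside this rule. Cell type markers and neighbouring genes shown singly were picked from their lists after their values were seen.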

Additional observations from a re-analysis of the deposited data

How the results depend on the processing

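The 5 higher OAS genes stayed higher in every setting that tested them, and their median with Oas3 ranged from 1.12 to 1.44 when 1 array was left out. Whether they passed depended on how variance was estimated, on which genes were fitted and, for Oasl2, on centring the arrays. The counts of OAS genes passing, and of all genes higher and lower, were 1, 43 and 8 with arrays centred on their medians, 3, 151 and 64 above the 25th percentile of level, 4, 635 and 616 above the median level (where Oas1g was left out), and 5, 817 and 798 with the intensity trend, against 0, 29 and 3 as reported. Level here was the mean over all 4 arrays, decitabine arrays included. Oas1b and Oas2, both among the 4 above the median level, lay below it by control level, at percentiles 46.9 and 44.8. They entered that test only through their decitabine values, so their passing there is not separate support. Robust eBayes gave 0, 15 and 3, and the mean of a gene's rows 0, 31 and 5. Fitting all rows gave 0, 0 and 0, with 2160 genes at an unadjusted p under 0.05. Among alternatives added after the data were seen, the trend with all rows fitted gave 1, 114 and 51. The trend gave 3, 222 and 116 without control replicate 1, 3, 216 and 183 without control replicate 2, 5, 668 and 937 without decitabine replicate 1, and 5, 566 and 445 without decitabine replicate 2. Without the trend, leaving out any 1 array gave 0 to 0 genes higher and lower in limma, with 1886 to 3275 at an unadjusted p under 0.05 and 5 OAS genes among them each time. The log2 difference of Oas3 then ran from -0.021 to 0.227, below 0 without decitabine replicate 2; the cause was not tested.

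With the replicate number as a block, 0 genes were higher and 0 lower, with 2815 at an unadjusted p under 0.05 and adjusted p of the 5 OAS genes between 0.106 and 0.199. The labels number the replicates but do not say whether same-numbered samples were paired. Across genes, the deviations of same-numbered arrays from their group means correlated at -0.02. That value, taken over all genes, cannot decide whether the samples were paired, because a shift in some genes would hardly move it. The standard errors of Oas2 and Oasl1 became 0.11 and 0.11 under the block, from 0.27 and 0.23. The number of arrays and the lack of a background level limit these values.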

Other observations

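Oas2 and Oasl1 read more than 0.4 log2 units higher on replicate 2 than on replicate 1 in both groups, a size chosen after the values were seen. Of all genes tested 111 did so, which is 0.50%. None of the 15 RNA sensor genes, the 22 genes of interferon signalling or the 37 other interferon-stimulated genes did. Oasl2 was higher on replicate 2 by 0.24 among controls and by 0.45 with decitabine, while Oas1g was lower by 0.06 and 0.24.

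Within the interferon-stimulated list 5 of 37 genes had negative differences, named after their values were seen: Ifitm2 (-0.64 ± 0.14), Ifitm1 (-0.28 ± 0.16), Mx1 (-0.21 ± 0.13), Ifi44l (-0.18 ± 0.10) and Ifit3 (-0.04 ± 0.14). None passed in limma without the trend, and Ifitm2 had an unadjusted p of 0.00575. With the trend Ifitm2 passed as lower (limma, adjusted p = 0.00617) and the other 4 did not.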
